A study of Mus musculus with 36 samples.

Results

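The comparison described here is between ribosome-protected fragments (RPFs) of FMR1 KO and WT mouse brain, taken from fraction 5/6 of a sucrose gradient and made with the standard nuclease protocol. It rests on 6 of the 36 libraries of the series, chosen by their labels: WT replicates 1, 2 and 3 and FMR1 KO replicates 1, 2 and 3. Each library came from a preparation of 10 pooled whole brains at postnatal day 5, from C57BL/6 mice or from mice with a constitutive loss of Fmr1, in a buffer with 10 mM MgCl2. The other libraries used below are the pellet of the same gradients, whole brain RNA of the same protocol, and fraction 5/6 of a low nuclease protocol, made in 2.5 mM MgCl2, with 3 libraries of each genotype in each. The 3 replicates of a condition received separate linkers and were then pooled before reverse transcription, so genotype and library pool cannot be told apart.

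FMRP, the product of Fmr1, is an RNA-binding protein that associates with polyribosomes in neurons, and its loss causes fragile X syndrome. Many ribosomes in the developing brain are held in clusters; the densest of these sediment to the bottom of the gradient as RNA granules, while fraction 5/6 holds clusters that stay in the gradient. Nuclease leaves only the stretch of mRNA covered by each ribosome, and the number of such fragments on an mRNA reflects how many ribosomes of that fraction sit on it. In whole brain tissue, fewer cells of a type and less RNA per cell cannot be told apart.

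The libraries held 21594932 to 33212827 counts in WT and 6765065 to 27263089 in FMR1 KO, the lowest being FMR1 KO replicate 3. Cdk8 alone took 46.0% to 59.2% of the WT counts and 36.7% to 52.9% of the FMR1 KO counts and was dropped. This left 4284209 to 16618125 counts per library, of which the top 10 genes held 14.5% to 30.3%. Levels below are CPM, that is counts scaled to a common library size (without Cdk8, adjusted by TMM), and fold changes are log2 of FMR1 KO over WT from edgeR with their standard error (SE). Single genes also differed by orders of magnitude between replicates of one genotype, as the levels of Plec below show.

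Fmr1 (ENSMUSG00000000838, GRCm38 chrX:68678541-68717963) was read first, as the check of the labels. It stood at 95.7, 101 and 3.14 CPM in WT replicates 1, 2 and 3 and at 6.60, 6.79 and 7.30 CPM in FMR1 KO. The library labelled WT replicate 3 therefore lay below all 3 FMR1 KO libraries. The pellet libraries of WT held 60.5 to 69.4 CPM of Fmr1 and the low nuclease fraction 5/6 libraries of WT held 93.3 to 111 CPM, with no WT library of either near the FMR1 KO values. With all 6 libraries the change was -3.27 (SE 1.08) with an edgeR adjusted p of 0.833. Leaving that library out, it was -3.83 (SE 0.11) with an adjusted p of 0.00128. That library is left out because of its Fmr1 counts, so this p is a description and not a test of Fmr1.

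Wdfy1 and Nebl gave the same order, and for Hist1h4m the library labelled WT replicate 3 lay between the other WT libraries and FMR1 KO. Wdfy1 and Hist1h4m differed between the genotypes in other libraries of the series, while Nebl did not pass the threshold in the pellet, the RNA or the low nuclease libraries. Wdfy1, which encodes an endosomal protein with a FYVE domain, stood at 30.3, 32.4 and 1.69 CPM in WT and at 3.64, 2.19 and 3.17 CPM in FMR1 KO. Nebl, the gene of the actin-binding protein nebulette, stood at 161, 96.5 and 10.3 CPM in WT and at 17.2, 14.9 and 10.3 CPM in FMR1 KO. Hist1h4m, a histone H4 gene, had 0, 0 and 14 counts in WT and 37, 17 and 28 counts in FMR1 KO. In each of these the library labelled WT replicate 3 was the one that departed from the other WT libraries, in the direction of FMR1 KO. Of 9 genes in this check, namely the 7 called in the low nuclease libraries with Wdfy1 and Nebl, it lay nearer on the log2 scale to FMR1 KO in 6 (Fmr1, for which it was singled out, and Wdfy1, Nebl, Hist1h4m, Gm15446 and Kcnh6) and nearer to WT replicates 1 and 2 in 3 (Fblim1, Tmprss4 and BC049352). Those 3 genes were lower in the low nuclease FMR1 KO libraries but not here. Fblim1 overlapped between the genotypes. Tmprss4 and BC049352 each had 98 counts in FMR1 KO replicate 2 and 1 to 5 in the other 5 libraries. Wdfy1 and Nebl were picked by name from 13 genes singled out before, so the tally is of a chosen set. Pde3b, of the same 13, stood at 4.78, 8.01 and 4.02 CPM in WT and at 2.05, 1.21 and 0.793 CPM in FMR1 KO. For Pde3b the library labelled WT replicate 3 thus lay above all FMR1 KO libraries.

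**Figure D1:**
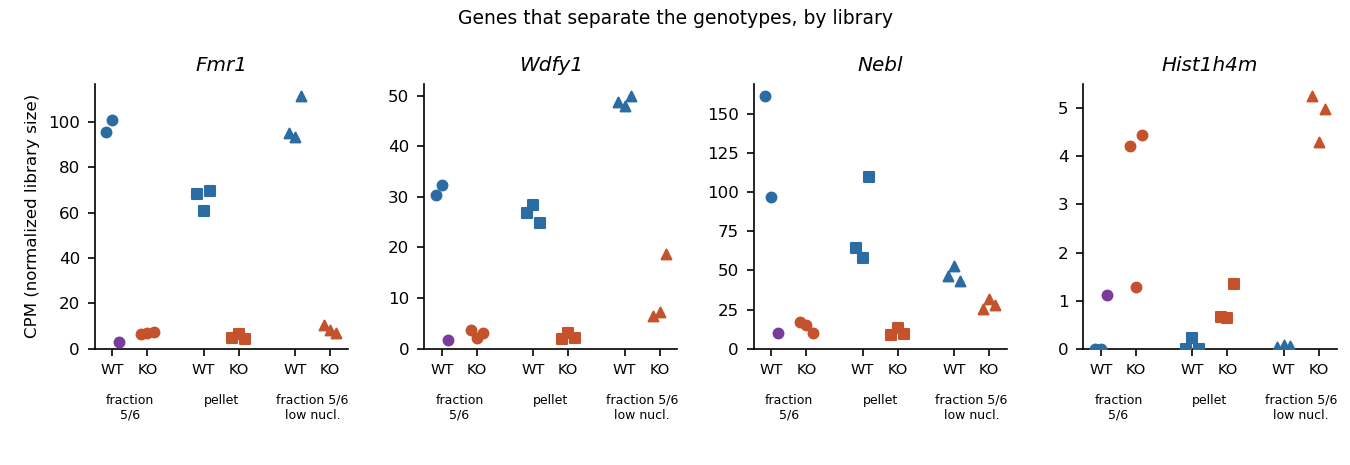
Levels of Fmr1, Wdfy1, Nebl and Hist1h4m in CPM (y axis, linear), one point per library, for fraction 5/6 (circles), the pellet (squares) and low nuclease fraction 5/6 (triangles), with WT in blue, FMR1 KO in orange and the library labelled WT replicate 3 of fraction 5/6 in purple. The purple point lies at 3.14 CPM for Fmr1 against 95.7 and 101 CPM in the other WT libraries, near the FMR1 KO points for Fmr1, Wdfy1 and Nebl, and for Hist1h4m between the WT points at 0 and the FMR1 KO points.

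Across the transcriptome the library labelled WT replicate 3 stood nearer to the pellet than to fraction 5/6. Over 14793 genes its log2 CPM correlated with the 6 standard pellet libraries at a Pearson r of 0.912 to 0.960 (mean 0.946), and with the other 5 fraction 5/6 libraries at 0.903 to 0.932 (mean 0.918). Its nearest library was replicate 3 of the FMR1 KO pellet, and those of WT replicate 1 and FMR1 KO replicate 3 were also pellet libraries. The other 5 libraries had mean correlations of 0.905 to 0.934 with the pellet and 0.916 to 0.935 with fraction 5/6. For these 5 the fraction 5/6 mean left out the library labelled WT replicate 3. The 2 means were almost equal for FMR1 KO replicate 2, at 0.9340 and 0.9345. These are correlations across genes, which are not independent replicates, within libraries that share annotation and read filters.

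Some of the genes by which it departed also differ between the pellet and fraction 5/6, while Fmr1 and Wdfy1 differ by genotype in the pellet too. Map1b, which encodes a microtubule-associated protein of growing axons and is a long-known FMRP-bound mRNA, stood at 1237, 1481 and 10205 CPM in WT and at 1494, 1664 and 1589 CPM in FMR1 KO. Its level in the 6 pellet libraries ran from 6702 to 11109.6 CPM. Kif5a, a neuronal kinesin motor, stood at 215, 283 and 1347 CPM in WT and at 217, 307 and 244 CPM in FMR1 KO, against 1062 to 1427 CPM in the pellet. For both genes the high WT library was the third, and its level fell inside the pellet range while the other 5 lay below it.

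Atrx and Sptan1 gave the same pattern. Atrx, a chromatin remodeller, stood at 137, 177 and 576 CPM in WT and at 145, 181 and 137 CPM in FMR1 KO, against 442 to 656 CPM in the pellet. Sptan1, the alpha chain of brain spectrin, stood at 321, 390.5 and 1536 CPM in WT and at 665, 367 and 548 CPM in FMR1 KO, against 1127 to 1942 CPM in the pellet. Ribosomal protein genes went the other way: Rps3, of the small subunit, stood at 217, 176 and 113 CPM in WT and at 172, 164 and 179 CPM in FMR1 KO, against 100.4 to 162 CPM in the pellet.

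Across 13749 genes the departure of this library from the mean of the other 5 correlated with the pellet mean minus that same mean at a Pearson r of 0.701 and a Spearman rho of 0.792. Both axes subtract the same mean, which alone gives a positive correlation. The same quantity for each of the other 5 libraries was between 0.123 and 0.371 (Pearson). By gene list, the median departure of spectrins and ankyrins was 1.18 on the log2 scale and their pellet difference 1.27; for chromatin regulators the values were 0.97 and 0.88, and for cytosolic ribosomal proteins -0.67 and -0.50. Whether this library is a pellet library, a fraction 5/6 library with pellet material or something else was not tested. Results below that rest on it are given with it and without it.

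**Figure D2:**
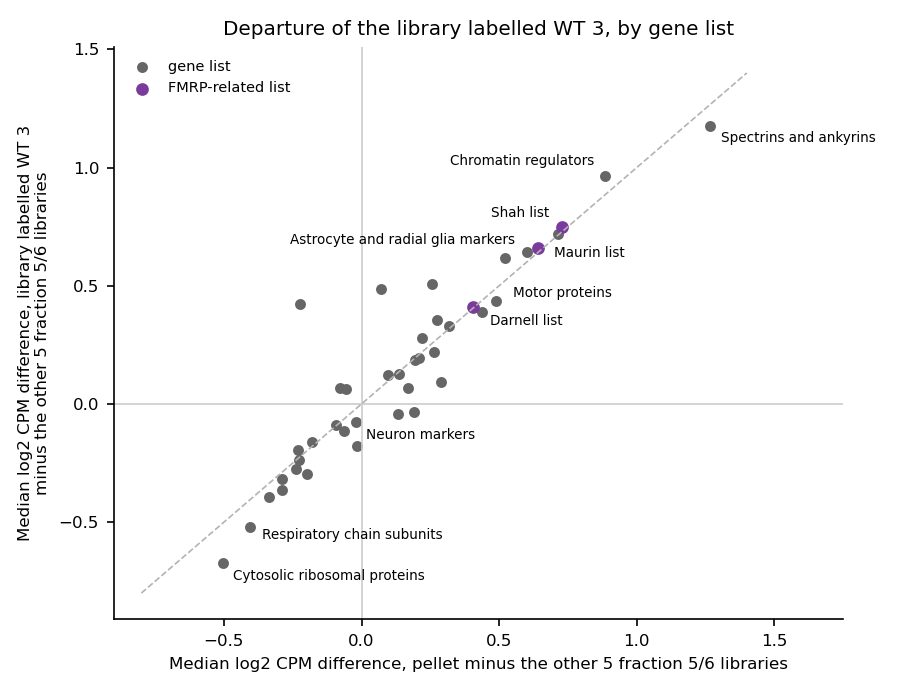
Each point is a gene list: the y axis is the median log2 CPM difference between the library labelled WT replicate 3 and the mean of the other 5 fraction 5/6 libraries, and the x axis that between the mean of the pellet libraries and the same 5. The dashed line marks equality. Spectrins and ankyrins (1.27, 1.18) lie at the upper end near the line and cytosolic ribosomal proteins (-0.50, -0.67) at the lower end.

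With all 6 libraries no gene passed the threshold. Of 13108 genes tested, 0 (0%) had an adjusted p under 0.05 in edgeR, the smallest being 0.343, while DESeq2 called 81, of which 78 were lower in FMR1 KO. At an unadjusted p under 0.05, 212 genes (1.62%) were higher and 386 (2.94%) lower in FMR1 KO. The 3 FMR1 KO libraries lay above all 3 WT libraries in 654 genes (4.99%) and below them in 599 (4.57%). With 3 libraries against 3, some genes separate in this way without a genotype difference, so these counts are not calls.

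The smallest p among the lower genes belonged to Sdk2, a cell adhesion molecule of the immunoglobulin superfamily (chr11:113776374-114067046). It stood at 24.3, 54.9 and 59.4 CPM in WT and at 3.64, 2.86 and 3.81 CPM in FMR1 KO, so that the genotypes did not overlap and the third WT library was the highest. The change was -3.75 (SE 0.39), with an edgeR adjusted p of 0.343 with all libraries and 0.149 without the library labelled WT replicate 3. In the low nuclease libraries Sdk2 changed by -0.60 (SE 0.34) and in RNA by -0.26 (SE 0.19), neither past the threshold.

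Spaca6, which encodes a sperm membrane protein needed for gamete fusion, stood at 42.5, 38.2 and 34.6 CPM in WT and at 12.1, 7.39 and 8.73 CPM in FMR1 KO. Its change of -2.03 (SE 0.22) also had an adjusted p of 0.343 in edgeR and was -2.11 (SE 0.22) without the library labelled WT replicate 3. The low nuclease change was -0.29 (SE 0.41). Il1rl2, a receptor of the interleukin-1 family, had 4.84, 10.0 and 3.70 CPM in WT and at most 0.635 CPM in FMR1 KO. Atrnl1, a membrane protein related to attractin, had 64.0, 303 and 77.6 CPM in WT and 5.73 to 9.68 CPM in FMR1 KO. Ripk4, a kinase of epithelial differentiation, had 1.29 to 1.96 CPM in WT and 0.302 to 0.476 CPM in FMR1 KO, where it and Il1rl2 had few counts. In these 5 genes the library labelled WT replicate 3 sat with the other WT libraries, which their choice by the smallest p of the fit with that library favours, and none passed the threshold.

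Among the higher genes the smallest p belonged to Cinp, which encodes a partner of the cell cycle kinase CDK2. It stood at 6.79, 5.01 and 4.83 CPM in WT and at 13.9, 14.9 and 10.5 CPM in FMR1 KO, a change of 1.23 (SE 0.23) with an edgeR adjusted p of 0.833 and of 1.13 (SE 0.24) without the third WT library. The zinc finger genes Zfp558 (6.36 to 8.52 CPM in WT, 12.2 to 12.6 CPM in FMR1 KO) and Zfp935 (2.67 to 3.28 and 5.08 to 5.50 CPM) and the cell cycle gene Tcf19 (0.668 to 1.09 and 1.81 to 2.70 CPM) did not overlap between the genotypes either. Cyb561d2, of the cytochrome b561 family, was at 2.34 to 2.88 CPM in WT and at 151, 182 and 5.08 CPM in FMR1 KO, so its rise rested on FMR1 KO replicates 1 and 2. In RNA these 5 genes changed by -0.12 to 0.20 on the log2 scale.

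**Figure D3:**
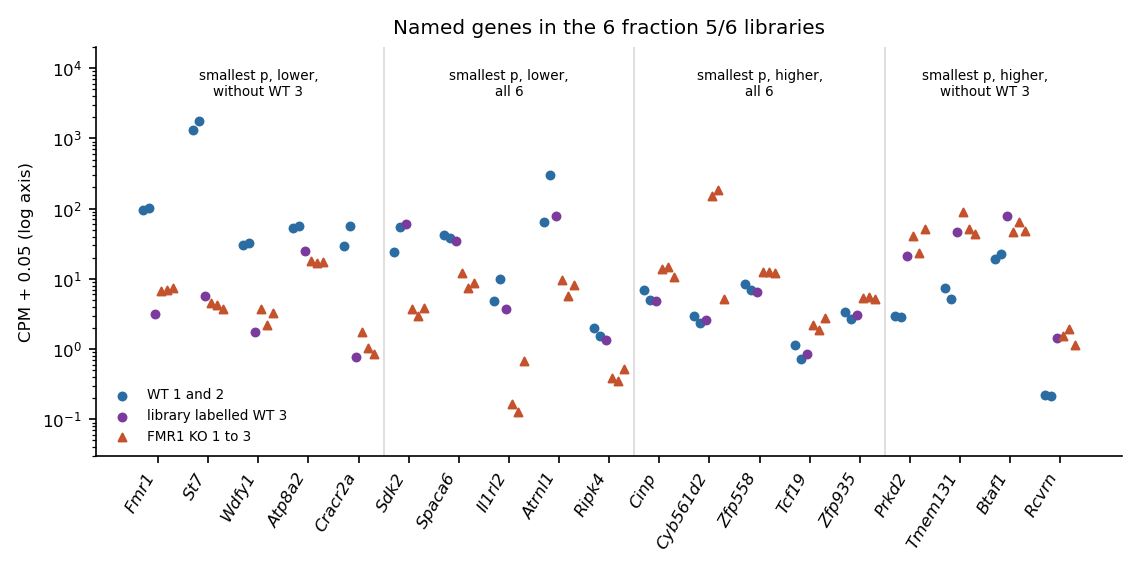
Levels of named genes in the 6 fraction 5/6 libraries, as CPM plus 0.05 on a log axis, one point per library: circles for WT, with the library labelled WT replicate 3 in purple, and triangles for FMR1 KO. Blocks are up to 5 genes with the smallest p in each direction, with all 6 libraries and without the library labelled WT replicate 3; for Fmr1 to Cracr2a the purple points lie with or near the FMR1 KO points, and for Sdk2 to Ripk4 with the WT points.

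When the library labelled WT replicate 3 was left out, 4 of 13135 genes (0.0305%) passed the threshold, all lower in FMR1 KO: Fmr1, whose values decided which library was left out, St7, Atp8a2 and Wdfy1. At an unadjusted p under 0.05, 251 genes (1.91%) were higher and 562 (4.28%) lower. This fit has 2 WT libraries against 3, and DESeq2 called 152 genes in it, 21 higher and 131 lower.

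St7, named as a suppressor of tumorigenicity (chr6:17692933-17943025), stood at 1321 and 1742 CPM in WT replicates 1 and 2 and at 4.55, 4.15 and 3.65 CPM in FMR1 KO, with 5.63 CPM in the library labelled WT replicate 3. The change was -8.53 (SE 0.30) with an edgeR adjusted p of 0.00217, and -7.95 (SE 1.88) with an adjusted p of 0.833 with all libraries. The call was lost when FMR1 KO replicate 1 was also left out (0.0853) and with the other 11 standard RPF libraries in the fit (0.299). In the pellet St7 stood at 1106, 4.13 and 563 CPM in WT and at 4.92, 175 and 52.5 CPM in FMR1 KO, so that the libraries of 1 genotype lay far apart there and the genotypes overlapped. The low nuclease change was -0.23 (SE 0.39) and the RNA change -0.41 (SE 0.30), neither past the threshold, and no peak was called on its transcript in any of the 6 libraries.

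Atp8a2, a phospholipid flippase of neurons (chr14:59638540-60197179), stood at 53.3, 56.9 and 24.7 CPM in WT and at 17.8, 16.8 and 17.5 CPM in FMR1 KO. Its change of -1.67 (SE 0.10) had an edgeR adjusted p of 0.0296 without the library labelled WT replicate 3 and 0.833 with it. The call was lost when any 1 of the FMR1 KO libraries was also left out (adjusted p 0.161, 0.122 and 0.111). In the low nuclease libraries the change was -0.12 (SE 0.26), in RNA -0.10 (SE 0.15) and in the pellet 0.89 (SE 0.62), none past the threshold.

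Wdfy1 (chr1:79702262-79776143) changed by -3.40 (SE 0.23) with an edgeR adjusted p of 0.0401 without the library labelled WT replicate 3. The call was lost when FMR1 KO replicate 1 (adjusted p 0.153) or 3 (0.116) was also left out, and with voom weights (0.0576). Wdfy1 was also lower in the pellet, by -3.51 (SE 0.21, adjusted p 0.0121), and in RNA, by -2.29 (SE 0.11, adjusted p 1.43e-05). The low nuclease change of -2.18 (SE 0.43) had an adjusted p of 0.569. Fmr1 and Wdfy1 were thus the 2 of the 4 genes whose RNA was also lower in FMR1 KO in edgeR, Fmr1 by -1.90 (SE 0.10, adjusted p 3.67e-05). Nebl changed by -3.18 (SE 0.31) with an adjusted p of 0.149, and its RNA by -0.02 (SE 0.19). Cracr2a, a regulator of store-operated calcium channels, stood at 29.4, 57.3 and 0.724 CPM in WT and at 1.71, 0.980 and 0.793 CPM in FMR1 KO, with an adjusted p of 0.0857.

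No gene was called higher by edgeR without that library, and 4 of those with the smallest p are given as values only. Prkd2, protein kinase D2, stood at 2.94, 2.84 and 20.8 CPM in WT and at 40.1, 22.9 and 51.6 CPM in FMR1 KO, a change of 3.71 (SE 0.41, adjusted p 0.149) that was -0.22 (SE 0.16) in the low nuclease libraries. Tmem131, of collagen secretion, stood at 7.43, 5.18 and 46.7 CPM in WT and at 43.9 to 88.1 CPM in FMR1 KO. Btaf1, a regulator of the TATA-binding protein, stood at 18.8, 22.7 and 79.7 CPM in WT and at 46.3 to 64.0 CPM in FMR1 KO. Rcvrn, a calcium sensor of photoreceptors, stood at 0.173, 0.167 and 1.37 CPM in WT and at 1.48, 1.88 and 1.11 CPM in FMR1 KO, levels that rest on few counts. In all 4 the library labelled WT replicate 3 lay above the other WT libraries.

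The other genes of the FMRP family and its partners did not pass the threshold. Fxr1, an autosomal relative of Fmr1, stood at 102, 107 and 77.8 CPM in WT and at 94.3, 107 and 80.6 CPM in FMR1 KO. Fxr2, the second relative, stood at 93.1, 91.8 and 79.2 CPM in WT and at 76.7, 90.8 and 70.3 CPM in FMR1 KO. Both overlapped between the genotypes over all 6 libraries, with changes of -0.03 (SE 0.19) and -0.15 (SE 0.15), and of -0.15 (SE 0.15) and -0.22 (SE 0.15) without the third WT library, where Fxr2 no longer overlapped. Cyfip1, which binds FMRP and belongs to the WAVE actin regulatory complex, stood at 55.8, 77.1 and 167 CPM in WT and at 46.3, 70.6 and 51.6 CPM in FMR1 KO, so that its change of -0.83 (SE 0.42) with all libraries became -0.24 (SE 0.24) without the third. Caprin1, an RNA granule protein, was level at 753 to 763 CPM in WT and 693 to 864 CPM in FMR1 KO. Of 14 members tested, edgeR called 0 with all libraries, beside 0% of all genes, where DESeq2 called Fmr1 (adjusted p 0.0239). Without the library labelled WT replicate 3 it called 1, beside 0.0305% of all genes, and this was Fmr1, whose counts decided the omission. The medians were -0.04 and -0.03.

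13 genes that earlier results of these data had singled out were followed as a list, most of which did not pass the threshold in the pellet, RNA or low nuclease libraries. Their median change was -0.41 with all libraries, where 1 was higher and 3 lower at an unadjusted p under 0.05, beside 1.62% and 2.94% of all genes. It was -0.19 without the library labelled WT replicate 3, where 6 were higher and 5 lower, beside 1.91% and 4.28% of all genes, and 1, Wdfy1, was called. Ide, insulin-degrading enzyme, stood at 109.5, 113 and 209 CPM in WT and at 158, 258 and 178 CPM in FMR1 KO. Pde3b, a cyclic nucleotide phosphodiesterase, stood at 4.78, 8.01 and 4.02 CPM in WT and at 2.05, 1.21 and 0.793 CPM in FMR1 KO, and its change of -2.00 (SE 0.43), or -2.18 (SE 0.44) without the third WT library, was 3.29 (SE 0.77) in the low nuclease libraries, none past the threshold. The X-linked neighbours Pcsk1n, a secretory pathway protein, and Wdr45, an autophagy protein, showed one pattern: Pcsk1n stood at 24.9, 28.2 and 116 CPM in WT and at 201, 255 and 32.8 CPM in FMR1 KO, with the third library of each genotype apart from the others. Since the list was chosen on these samples, its direction is not independent evidence.

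3 lists bear on FMRP and on stalled ribosomes. The Shah list (185 genes tested) holds mRNAs whose ribosomes resist run-off, and the Maurin (262) and Darnell (749) lists hold mRNAs crosslinked to FMRP in brain. With all 6 libraries their median changes were -0.25, -0.27 and -0.21, below the -0.01 of all genes, and edgeR called 0 members. Over all gene lists together DESeq2 called 7 of 1488 genes in that fit, beside 81 of 13108 genes tested. Without the library labelled WT replicate 3 the medians were 0.09, 0.04 and -0.02, against 0.01 for all genes, so that 2 of the 3 changed sign. That library held the members of the 3 lists at a median of 0.75, 0.66 and 0.41 above the other 5 on the log2 scale, and the pellet held them at 0.73, 0.64 and 0.41 above.

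At an unadjusted p under 0.05, 3 members of the Shah list (1.62%), 10 of the Maurin list (3.82%) and 25 of the Darnell list (3.34%) were lower with all 6 libraries, beside 2.94% of all genes. With that library left out, 5, 7 and 32 members were lower (2.70%, 2.67% and 4.28%), beside 4.28% of all genes. Higher were then 16 members of the Shah list (8.65%), 5 of the Maurin list (1.91%) and 13 of the Darnell list (1.74%), beside 1.91% of all genes, where the fit with all 6 libraries had 0, 0 and 1. Among the most abundant members, Dpysl2, a microtubule-binding protein of axon growth, stood at 2309.6, 2331 and 4491 CPM in WT and at 2049 to 2662 CPM in FMR1 KO. Other abundant members were erratic: Plec, plectin, stood at 13.4, 9109 and 4606 CPM in WT and at 9486, 9103 and 436 CPM in FMR1 KO, and Ube3b, a ubiquitin ligase, ran from 421 to 12096 CPM in WT and from 279.5 to 4750.1 CPM in FMR1 KO.

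**Figure D4:**
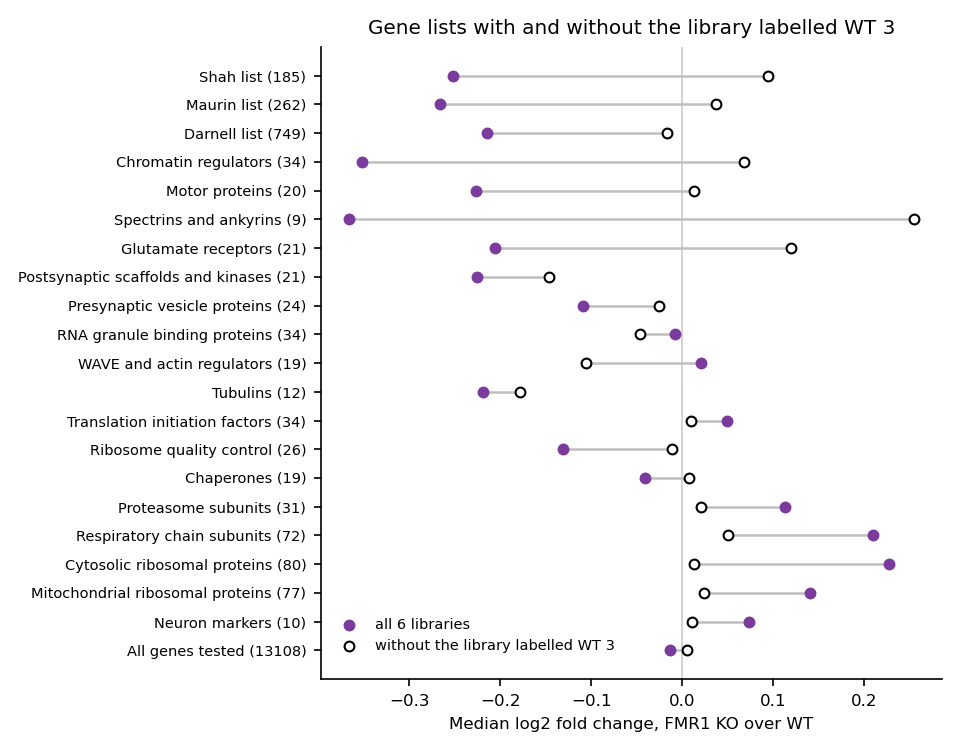
Median log2 fold change of FMR1 KO over WT for each gene list (number tested in brackets), with all 6 libraries (filled points) and without the library labelled WT replicate 3 (open points). The Shah, Maurin and Darnell lists move from -0.25, -0.27 and -0.21 to 0.09, 0.04 and -0.02, while all genes tested stay at -0.01 and 0.01.

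Some lists of the cytoskeleton and of chromatin moved the same way. Chromatin regulators (34 tested) had a median change of -0.35 with all libraries and 0.07 without the library labelled WT replicate 3. Spectrins and ankyrins (9), which form the membrane skeleton, went from -0.37 to 0.26, and motor proteins (20) from -0.23 to 0.01. Others did not: WAVE and actin regulators (19) went from 0.02 to -0.11, and tubulins (12) stayed negative, at -0.22 and -0.18. Tubb5, a beta-tubulin of the developing brain, stood at 6534, 6044 and 6605 CPM in WT and at 5175, 6542 and 6054 CPM in FMR1 KO. No member of these lists was called by edgeR in either fit.

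Synaptic lists held no edgeR call either. Postsynaptic scaffolds and kinases (21) had medians of -0.23 and -0.15 without the third WT library, and Camk2a, the alpha subunit of the postsynaptic kinase CaMKII, stood at 251, 255 and 259 CPM in WT and at 185, 263 and 187 CPM in FMR1 KO. Glutamate receptors (21) went from -0.21 to 0.12, presynaptic vesicle proteins (24) from -0.11 to -0.03 and GABA-A receptor subunits (11) from 0.06 to 0.24.

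Several lists of the translation and energy machinery were on the other side of 0. Cytosolic ribosomal proteins (80 tested) had a median change of 0.23 with all libraries and 0.01 without the library labelled WT replicate 3, respiratory chain subunits (72) 0.21 and 0.05, mitochondrial ribosomal proteins (77) 0.14 and 0.02, and proteasome subunits (31) 0.11 and 0.02. Rpl4, a large subunit protein, stood at 447, 395 and 297 CPM in WT and at 357, 421 and 435 CPM in FMR1 KO. Translation initiation factors (34) had medians of 0.05 and 0.01. Ribosome quality control genes (26), at -0.13 and -0.01, elongation and release factors (10), at -0.03 and -0.06, and glycolytic enzymes (16), at -0.07 and -0.18, were negative in both fits. The 2 fits share 5 of their 6 libraries, so they are not separate measurements. With library sizes alone in place of TMM, the median of all 6-library changes was 0.28 for all genes, and 0.02 for the Shah list, 0.02 for the Maurin list, 0.07 for the Darnell list and 0.56 for cytosolic ribosomal proteins, so that the sign of the first 3 flipped while they stayed below all genes.

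ER translocation and secretory folding genes (26) had a median of 0.06 with all libraries and 0.35 without the library labelled WT replicate 3. Without it, all FMR1 KO libraries lay above the WT libraries in 13 of 26 members and below them in 1. Of all 13135 genes tested, 1412 and 1445 did so. Calr, an ER chaperone, stood at 31.8, 31.6 and 64.1 CPM in WT and at 39.7, 45.2 and 44.1 CPM in FMR1 KO, while Pdia3, an ER disulfide isomerase, stood at 45.5, 35.1 and 41.0 CPM in WT and at 29.1, 28.3 and 27.3 CPM in FMR1 KO. Neither gene was past the threshold.

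Markers of brain cell types were present, and none was called by edgeR. Neuron markers (10) had medians of 0.07 and 0.01, with Stmn2, a neuronal microtubule regulator, at 1429 to 1985 CPM in WT and 1797 to 2045 CPM in FMR1 KO. Astrocyte and radial glia markers (11) had medians of -0.26 and -0.03, and stood 0.65 above the other 5 libraries in the library labelled WT replicate 3 and at 0.15 to -0.42 in the others. Oligodendrocyte lineage markers (10) had medians of -0.22 and -0.05 and microglia markers (8) of -0.01 and 0.27. Cx3cr1, the microglial fractalkine receptor, stood at 76.6 to 93.6 CPM in WT and 83.3 to 88.4 CPM in FMR1 KO. That was far above its list, whose median level was 1.77 to 2.33 log2 CPM in the 6 libraries. Endothelial and mural markers were sparse, with 5 of 9 tested and a median level of -0.03 to 1.24 log2 CPM. The part of cell composition in any list value was not tested.

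Whether the RPF change differed from that of the RNA was tested as occupancy, the interaction of genotype with fraction 5/6 against RNA. With all 6 fraction 5/6 libraries 5 of 16445 genes (0.0304%) were called in edgeR: Sdk2, by -3.51 (SE 0.46, adjusted p 0.0354), and the Y-linked Eif2s3y, Ddx3y, Uty and Kdm5d, higher. The Sdk2 call was lost without FMR1 KO replicate 1 (0.0881) or 2 (0.156) and with library size alone (0.0655). The Y-linked genes were present in all 6 RPF libraries: Ddx3y, an RNA helicase, stood at 48.8, 58.1 and 41.0 CPM in WT and at 45.0, 55.9 and 35.1 CPM in FMR1 KO. In the FMR1 KO RNA, by contrast, Eif2s3y had 0 counts in the 3 libraries against 6014 in WT, at least 2113-fold lower by a floor of 3 counts over the group, and Ddx3y had 38 counts against 13736. The difference of these 4 genes thus lay in the RNA libraries, not in fraction 5/6. Whether the FMR1 KO brains used for RNA and for RPFs were of the same sexes was not tested, and this bears on every occupancy value.

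With that library left out, 38 of 16536 genes (0.23%) were called for occupancy, 7 higher and 31 lower. The higher genes were the 4 Y-linked genes, Prkd2 at 3.87 (SE 0.40, adjusted p 0.00281), Tmem131 at 3.30 (SE 0.38, adjusted p 0.00530) and Fbn1, the gene of the matrix protein fibrillin-1, at 6.29 (SE 0.84, adjusted p 0.0144). The lower genes included Fmr1 at -1.94 (SE 0.13), whose counts decided which library was left out, St7 at -8.12 (SE 0.50), Atp8a2 at -1.56 (SE 0.21), Nebl at -3.16 (SE 0.40, adjusted p 0.00909) and Sdk2 at -3.26 (SE 0.45, adjusted p 0.0180). Ube2n, a ubiquitin-conjugating enzyme, and Nudt4 were among them with similar levels in each library, 579 and 612 CPM in FMR1 KO replicate 1. Ube2n stood at 4574, 3548 and 1161 CPM in WT and at 579, 499 and 354 CPM in FMR1 KO.

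Whether fraction 5/6 changed differently from the pellet was tested as a second interaction. No gene was called in edgeR among 13749, with the third WT library, or among 14008 without it, where 765 and 826 had an unadjusted p under 0.05 and the smallest adjusted p was 0.534 and 0.0902. For Fmr1 the change differed by -0.10 (SE 0.21) between the fractions without that library, and for Wdfy1 by 0.12 (SE 0.31).

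The low nuclease libraries of fraction 5/6 gave the same contrast in other libraries. There 7 of 15739 genes (0.0445%) were called in edgeR: Hist1h4m, Kcnh6 and Gm15446 higher and Fmr1, Tmprss4, BC049352 and Fblim1 lower. Fmr1 changed by -3.56 (SE 0.19, adjusted p 0.00582). Of the other 3 genes called in the standard libraries, Wdfy1 kept its direction and St7 and Atp8a2 changed by under 0.25 on the log2 scale.

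With all 6 libraries, distances between genotypes were close to those within genotypes. On log2 CPM of 13108 genes, the mean Euclidean distance between genotypes was 106.9 and within genotypes 105.7, a ratio of 1.01 (one-sided p 0.5 in an exact permutation of the genotypes; 3 against 3 allow no p under 0.1). Without the library labelled WT replicate 3 the ratio was 1.08 with p 0.1, the smallest that 2 against 3 can give. WT replicate 2 and the library labelled WT replicate 3 had the largest mean distances to the others, 113.2 and 113.0, and FMR1 KO replicate 2 the smallest, 96.6.

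Peaks of RPF coverage, as the authors called them in each library, give the positions at which ribosomes gather on an mRNA. There were 30153, 12432 and 23376 peaks in WT and 17341, 24548 and 11389 in FMR1 KO, with median heights of 14 to 16 in unscaled coverage, and 96.3% to 98.4% of placed peaks lay in coding sequence. Zeniths within 6 nt on the same transcript were taken as shared. A pair of libraries shared 18.69% of peaks on average within a genotype and 18.73% between genotypes (exact permutation test, one-sided p 0.7, smallest possible 0.1). Without the library labelled WT replicate 3 the shares were 20.2% and 19.2% (exact permutation test, p 0.4). FMR1 KO replicates 1 and 2 shared most, 24.3%, and WT replicate 2 and the library labelled WT replicate 3 least, 14.1%.

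**Figure D5:**
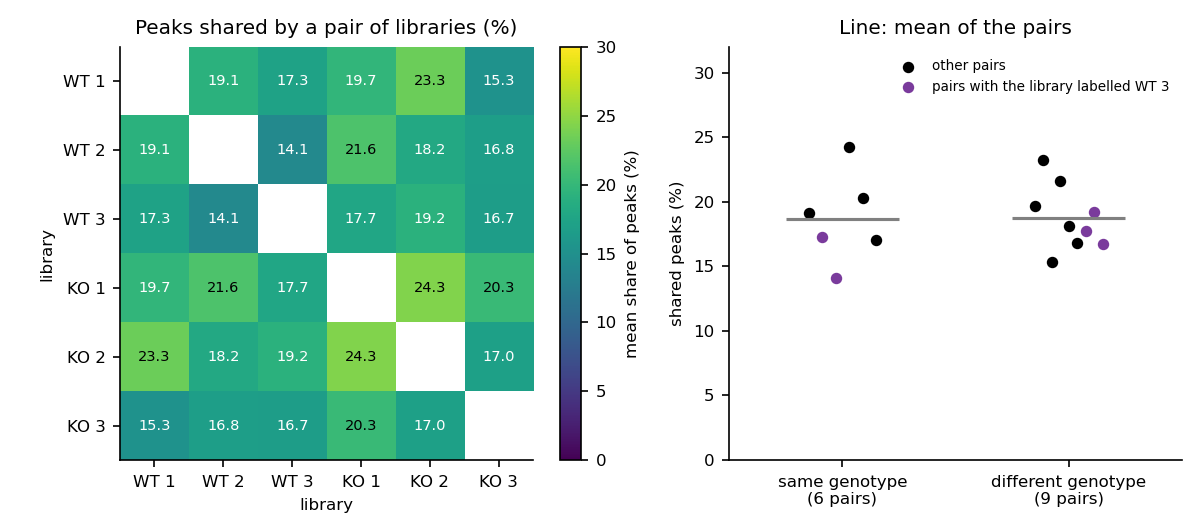
Left, the percentage of peaks shared by each pair of fraction 5/6 libraries (mean of both directions, zeniths within 6 nt); right, the same values for 6 pairs of one genotype and 9 pairs of different genotypes, with pairs that include the library labelled WT replicate 3 in purple and the mean of the pairs as a line. Values run from 14.1% to 24.3%, and the means, 18.69% and 18.73%, lie at the same height.

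Of 84980 distinct peak loci, 260 (0.306%) were found in all 6 libraries, 209 (0.246%) in all 3 WT and no FMR1 KO library, and 232 (0.273%) in all 3 FMR1 KO and no WT library. 61775 loci (72.7%) were found in 1 library. Leaving the library labelled WT replicate 3 out of account, 371 loci (0.437%) were found in WT replicates 1 and 2 and all 3 FMR1 KO libraries, 1198 (1.41%) in WT replicates 1 and 2 and no FMR1 KO library, and 350 (0.412%) in all 3 FMR1 KO libraries and neither of these WT libraries. The WT count then asks for 2 libraries and the FMR1 KO count for 3, so their sizes are not comparable. The mRNA with most peaks in all 6 libraries was Vcp, a segregase of ubiquitinated proteins, with 9, followed by Hsp90aa1, a heat shock protein, with 8, and Actb, Arf1, Calm2, Eef1a1, Fabp5 and Hnrnpa1 with 4 each. Per kilobase of coding sequence Fabp5 had 9.88 and Vcp 3.72 of such peaks. Among the highest coding peaks found in all 6 libraries, relative to the median height of their library, were 3 in tubulin and actin mRNAs, and their 29 nt windows are shown because they were among the strongest positions common to both genotypes. The windows run 14 nt to each side of the zenith on the mRNA (GENCODE M21 transcripts, GRCm38), all from genes on the minus strand.

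Tubb2b codon 202: gaaacctactgcatcgataatgaggctct
Tuba1a codon 106: ataactatgctcgtggccactacaccatt
Actb codon 368: gagtccggcccctccatcgtgcaccgcaa

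The Tubb2b window, in a beta-tubulin mRNA, lies at chr13:34128189-34128217, and its height was 4020, 1286 and 2345 in WT and 1848, 3272 and 1290 in FMR1 KO. The Tuba1a window, in an alpha-tubulin mRNA, lies at chr15:98951233-98951261, and its height was 3492, 1068 and 2660 in WT and 1359, 2835 and 1260 in FMR1 KO. The overlapping gene model Gm49450 repeats this peak. The Actb window, in the mRNA of beta-actin, lies at chr5:142903808-142903836. The highest peak of any region, in the 3′ UTR of Tmem38b, an ER cation channel, had heights of 5030, 5445 and 25118 in WT and 83779, 42666 and 4305 in FMR1 KO, and overlapped between the genotypes.

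Peaks found in all libraries of 1 genotype were lower, and the strongest whose window lies within coding sequence are shown because they differ in where a peak was called. In capitals are AGGA and TGGA, sequences that have been linked to FMRP binding, searched on the mRNA strand only, with a window counted once where it held both.

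Ywhab codon 168, WT: agcctacacacccgattcgcctcggcctg
Actr2 codon 275, WT: atcaatgtcgagggggttggtgttgctga
Elavl3 codon 293, WT: tgtacaacctgtccccagaagctgatgag
Ywhae codon 248, FMR1 KO: taaagaagcgctgcAGGAtgTGGAagatg
Ckb codon 216, FMR1 KO: gccggatgctcgtggcatatggcacaatg
Ppp2r1a codon 80, FMR1 KO: ccttcacaactttggtgggagggcctgag
Cdc42 codon 50, FMR1 KO: attggTGGAgagccatacactctTGGAct

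Ywhae and Ywhab encode 14-3-3 adaptor proteins, Actr2 an Arp2/3 complex subunit, Elavl3 a neuronal RNA-binding protein, Ckb the brain creatine kinase, Ppp2r1a the scaffold of protein phosphatase 2A and Cdc42 a small GTPase of actin control. The Ywhae peak at nucleotide 902 (chr11:75764633-75764661) had heights of 781, 1158 and 346 in FMR1 KO, and Ywhae also had the highest WT peak of this kind, at nucleotide 922 with heights of 1852, 843 and 569, so the mRNA had peaks in both genotypes with zeniths at different positions. The Cdc42 window (chr4:137332421-137332449) had heights of 152, 233 and 114. None of the 3 windows shown as common to both genotypes and none of the 3 WT windows held AGGA or TGGA, while 2 of the 4 FMR1 KO windows did. The Ckb window spans an intron (chr12:111670278-111670893). Over all such peaks, AGGA or TGGA was in 94 of 233 coding windows common to all 6 libraries (40.3%), 84 of 195 of WT (43.1%) and 75 of 219 of FMR1 KO (34.2%), beside 35.8% of all 29 nt coding windows of transcripts with a peak. Leaving out the library labelled WT replicate 3, the counts were 137 of 336 (40.8%), 518 of 1128 (45.9%) and 118 of 328 (36.0%). Loci found in only 1 library held AGGA or TGGA in 23530 of 58522 coding windows (40.2%), close to the share of loci common to all 6. A match is a description of the sequence, not a binding site.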

How the data were processed

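RPFs of fraction 5/6 were compared between genotypes in 6 libraries. The authors trimmed reads with cutadapt 2.10, removed non-coding RNA reads with Bowtie2 2.3.5, aligned to GRCm38 with STAR 2.7.8a, marked duplicates with Picard, removed them with SAMtools 1.19.2 and counted reads with featureCounts 2.2.0 (versions per the submitters' processing notes). The deposited counts are whole reads per gene, not normalized. The deposited peak heights are coverage signal per library on transcript coordinates, not scaled by the authors as far as the sources say. Removal of duplicates by position can cap counts at strong positions, and peak heights are not scaled for depth.

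Here Cdk8 and 26 genes annotated as not protein-coding were dropped, filterByExpr and TMM applied, and genotypes compared by edgeR 4.0.16 quasi-likelihood tests (R 4.3.3) with Benjamini-Hochberg adjustment at 0.05. Log2 CPM used a prior count of 2. The interaction fits and the low nuclease fit used the same steps. Alternatives were DESeq2 1.42.0, limma 3.58.1 voom weights, other scalings and filters, the replicate block and leaving out each library. Named genes were Fmr1, its relatives and partners, Y-linked and strain-related genes, genes past the threshold or up to 5 with the smallest p per direction, and up to 4 of the highest members per list. Tmprss4, BC049352, Fblim1, Ube2n, Nudt4 and Fbn1 were named after their values were seen. Members and lists were chosen with earlier results of these data known. Statistics were tested on simulated data. Positions on transcripts were read from GENCODE M21 (GRCm38). Peaks were matched in Python 3.11.15 and figures drawn with matplotlib 3.10.9. 91 pairs of neighbouring genes had counts within 5% in every library and cannot be told apart. Replicates are separate preparations by the study's methods. Some genes and sequences that the rules select are not reported here.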

Additional observations from a re-analysis of the deposited data

Results flagged for a closer look

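5 genes were singled out because their genotype change in fraction 5/6 RPFs differed from that in RNA, by the interaction test in edgeR. Sdk2 had a difference of -3.51, with 3 of 3 FMR1 KO libraries below all WT libraries in RPFs. The difference for Ddx3y was 8.41, for Uty 8.57 and for Kdm5d 9.94. For Eif2s3y it was at least 11.1, computed against the floor of 3 counts because the FMR1 KO RNA libraries held 0 counts. The fitted sizes for Uty and Kdm5d rest on 18 and 4 counts in the FMR1 KO RNA. In RPFs these 4 genes changed by -0.71 to 0.02 between the genotypes, none past the threshold, and by -0.23 to 0.07 without the library labelled WT replicate 3. The cause of the low RNA counts was not tested.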

How the results depend on the processing

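The count of called genes depended on the tool and on the libraries. With all 6 libraries, where edgeR called 0, DESeq2 called 81 (7 of them in the gene lists) and library size alone 3, and leaving out 1 library, or 1 replicate number of both genotypes, gave 0 to 11. Leaving out 1 library gave 0 to 2 in the lists. Without the library labelled WT replicate 3, where edgeR called 4, DESeq2 called 152, library size alone 358 (its median of all genes being 0.38), voom with quality weights 2 and robust estimation 13. Leaving out 1 further library gave 1 to 131, the highest counts coming from 1 WT library against 3, whose lone WT library is assumed to vary like FMR1 KO. St7, Atp8a2 and Wdfy1 were not called without FMR1 KO replicate 1 (adjusted p 0.0853, 0.161 and 0.153), while Fmr1 was. Atp8a2 was also lost without FMR1 KO replicate 2 (0.122) or 3 (0.111), with voom (0.0575) and with library size alone (0.169), and Wdfy1 without FMR1 KO replicate 3 (0.116) and with voom (0.0576). With the other 11 standard RPF libraries in the fit, an alternative chosen after seeing the data, 5 genes were called, with Wdfy1 (0.000646) and Nebl (0.0182) past the threshold, beside Fmr1, whose counts decided the omission, and St7 (0.299) and Atp8a2 (0.570) not. Leaving out 1 library gave 6 to 38 calls for occupancy, 0 to 4 against the pellet and 7 to 23 in the low nuclease libraries.

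Replicate numbers did not pair the libraries: same-numbered libraries deviated together at r of -0.02, 0.13 and 0.13. In fits that blocked on replicate number, 0 genes were called with all 6 libraries and 0 without the library labelled WT replicate 3, with Fmr1 at an adjusted p of 0.152; 4 were called for occupancy, without Sdk2 (adjusted p 0.145), 1 against the pellet and 1 in the low nuclease libraries.

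Within minus between genotypes, the share of peaks was -0.04 percentage points; it was -0.237 with zeniths within 12 nt, 0.0729 with zeniths at 0 nt, 0.0486 with the higher peaks by height and 1.03 without the library labelled WT replicate 3, so its sign changed with the setting. Of the results answering a comparison, 37 alternatives left the value close, 33 moved it and 3 reversed its sign. Depth limits genes under about 1 CPM, where FMR1 KO replicate 3 has few counts.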
